A study of Saccharomyces cerevisiae and Saccharomyces mikatae and Saccharomyces paradoxus with 13 samples.

Results

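The nuclear genes of the mitochondrial respiratory chain, the ATP synthase and the tricarboxylic acid (TCA) cycle were followed through the mating response of 3 budding yeasts. The set held 46 ORFs, chosen by their identifiers among the 6132 ORFs of the deposited table, and all 46 were found in it. It comprised NDI1, 4 genes of succinate dehydrogenase, 8 of the cytochrome bc1 complex, 2 of cytochrome c, 9 of cytochrome c oxidase, 11 of the ATP synthase and 11 of the TCA cycle. RNA ratios came from 13 S. cerevisiae cDNA arrays with 2 colours, each holding a treated or mated sample and a reference sample of its own. In 4 S. mikatae arrays (an a-type haploid from the wild strain IFO 1815), 3 S. paradoxus arrays (an a-type haploid from CBS432) and 3 S. cerevisiae arrays (haploid BY4741, a cells), log-phase cells in YPD at 30 °C were taken 60 min after 6 µM alpha factor (the mating pheromone that alpha cells secrete) was added, and set against cells from before this. In 3 further S. cerevisiae arrays, BY4741 and BY4742 haploids (a and alpha cells) were mixed on a filter on YPD agar for 90 min, and the reference was the same 2 strains kept apart until RNA extraction. Each species was represented by 1 strain background, and the series design calls the arrays of a species biological replicates. Mated samples held both mating types, so their ratios are averages over a and alpha cells. Alpha factor arrays held no untreated cells of 60 min, so the pheromone and 60 min of further culture cannot be told apart in their ratios.

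The TCA cycle oxidises acetyl groups in the mitochondrial matrix and hands electrons to NADH and to succinate dehydrogenase. The respiratory chain passes them through ubiquinone, the cytochrome bc1 complex and cytochrome c to cytochrome c oxidase, which reduces oxygen, and the proton gradient so built drives the ATP synthase. Budding yeast has no proton-pumping NADH dehydrogenase and uses single-subunit enzymes such as Ndi1 instead. Glucose represses many of these genes, several of which depend on the Hap2/3/4/5 activator, and heme and oxygen supply also control some of them.

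Values are log2 ratios of treated or mated cells over their reference. This direction is likely rather than certain, because the channel labels and the labelling protocol name different dyes for the treated sample. It follows the channel order and genes known to be induced by pheromone: FIG1, a membrane protein of mating, averaged 4.62 on S. mikatae, 5.02 on S. paradoxus, 4.97 on mating and 4.97 on S. cerevisiae alpha factor arrays, and the nuclear fusion regulator KAR4 averaged 4.37, 3.82, 3.25 and 3.59. Of 5 such genes, all that were tested rose in each group except AGA1 in S. mikatae (0.17, adjusted p = 0.352). With the other direction all signs below would turn. Ratios give no level of a gene, and in whole cultures fewer responding cells and less RNA per cell cannot be told apart. All tested markers of a cells rose (4 of 4 on S. mikatae, 7 of 7 on S. paradoxus, 6 of 6 on mating and 7 of 7 on S. cerevisiae alpha factor arrays). Of the alpha-cell markers tested, 1 of 3 rose in S. mikatae and 1 of 3 in S. paradoxus. After alpha factor in S. cerevisiae 2 of 3 rose, and the other markers tested in these groups were not called. STE3, the a-factor receptor gene, rose by 0.33 in S. mikatae and by 0.50 in S. paradoxus, and MF(ALPHA)2 and SAG1 rose by 0.39 and 0.54 in S. cerevisiae after alpha factor. On the mating arrays 3 of 4 alpha-cell markers rose, and the part of any of these in the results was not tested. Between 4253 and 4304 ORFs gave a value per S. mikatae array, 4367 to 4777 per S. paradoxus array, 3616 to 3740 per mating array and 5678 to 5964 per S. cerevisiae alpha factor array. The number of arrays limits the precision.

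Not every gene of the set could be read in every group, and a response was tested where at least 2 arrays of the group gave a value. In S. mikatae 42 were tested: COX4, COX7 and ACO1 gave no value on any array, and SDH4 gave 1. In S. paradoxus 43 were tested, without COX7, CYC1 and ACO1. Mating arrays covered 29 and lacked 17, among them COX5A, SDH1, CIT1, IDH2, KGD2 and LSC1. The S. cerevisiae alpha factor arrays covered 45, all but COX4, which had 1 value.

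More of these genes rose than fell in all 4 groups, by small amounts. A gene was called where limma's Benjamini-Hochberg adjusted p over all genes tested was under 0.05. In S. mikatae 18 of 42 rose and 7 fell, where 48% of all 4367 genes tested were called, 23.3% higher and 24.7% lower. In S. paradoxus 18 of 43 rose and 8 fell, where 48.5% of 4748 genes were called, 23.9% higher and 24.6% lower. On the mating arrays 11 of 29 rose and 1, ATP3, fell, where 39.6% of 3712 genes were called, 19.4% higher and 20.2% lower. After alpha factor in S. cerevisiae 21 of 45 rose and 1, COX12, fell, where 33.6% of 5789 genes were called, 16.3% higher and 17.3% lower. The share that rose was thus above the background in each group (42.9%, 41.9%, 37.9% and 46.7%), and the share that fell was 16.7%, 18.6%, 3.45% and 2.22%. The median over tested genes of the set was 0.14 in S. mikatae, 0.14 in S. paradoxus, 0.15 on mating and 0.23 on S. cerevisiae alpha factor arrays, where the median of all genes lay within 0.01 of 0. No mean of the set reached 1 on the log2 scale. The map of values by array shows these patterns gene by gene.

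**Figure D1:**
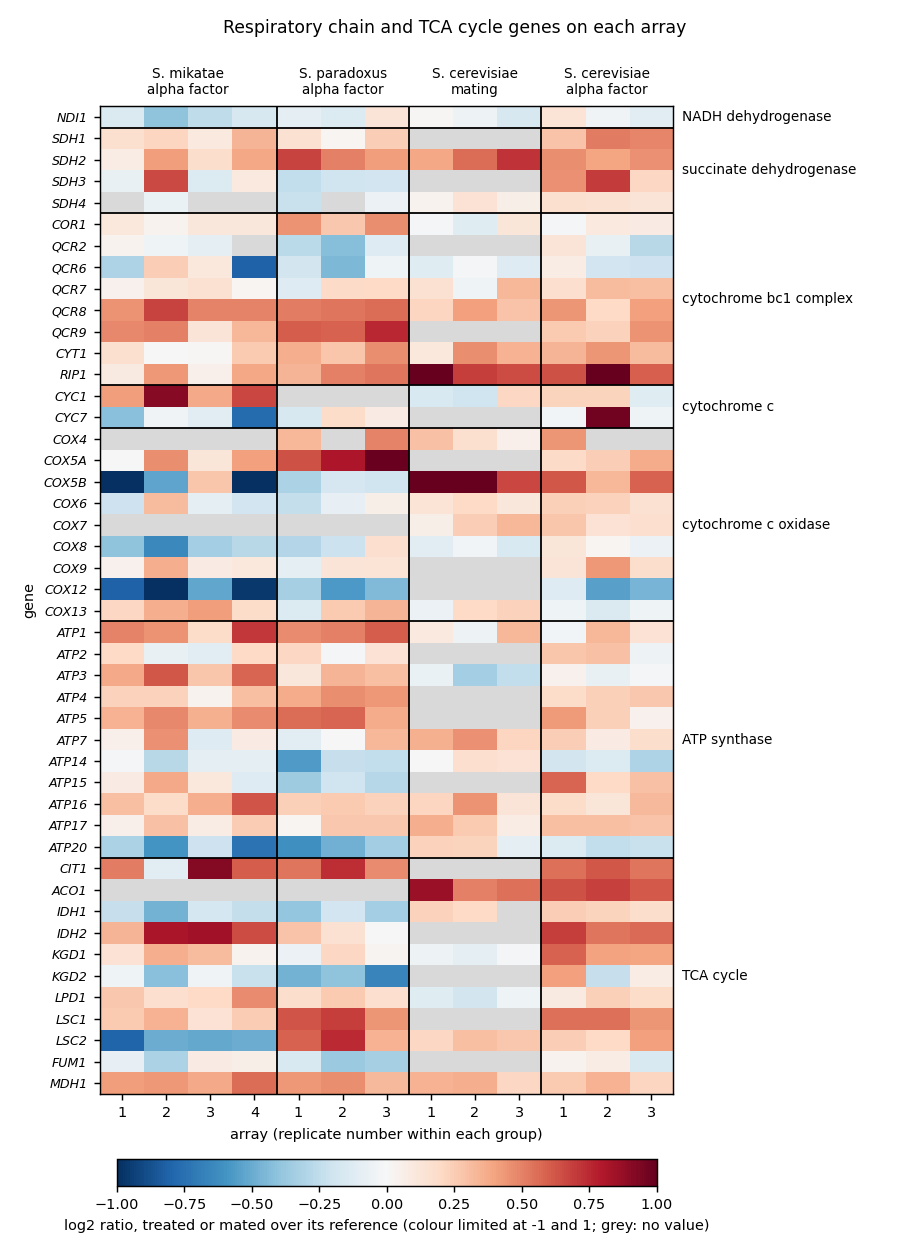
Log2 ratios of the 46 genes (rows, grouped by complex) on each of the 13 arrays (columns, grouped by species and treatment), with colour from blue (lower than the reference) through white to red (higher), limited at −1 and 1, and grey where no value was given. QCR8, SDH2 and MDH1 are red on all 13 arrays, COX12 is blue on all 10 arrays that measured it, and LSC2 is blue on the 4 S. mikatae arrays and red on the other 9.

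Of the 41 genes tested in all 3 species after alpha factor, 8 rose in each of them: QCR8, QCR9, SDH2, ATP4, ATP5, CIT1, LSC1 and MDH1. That is 19.5%, where 7.69% of all 4084 genes tested in the 3 species rose in each. COX12 alone fell in each, 2.44% against 9.89%. A further 5 genes (COX6, QCR6, CYC7, ATP2 and ATP7) were called in none of the 3 species, 12.2% against 28.7%. ATP15, IDH1 and LSC2 were called in opposite directions in 2 species, 7.32% against 3.16%.

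NDI1 (YML120C), the internal NADH dehydrogenase that feeds matrix NADH into the chain, was at −0.15, −0.41, −0.26 and −0.16 on the S. mikatae arrays, at −0.089, −0.14 and 0.13 on the S. paradoxus arrays, at 0.015, −0.054 and −0.16 on the mating arrays and at 0.13, −0.033 and −0.10 on the S. cerevisiae alpha factor arrays. It was lower on all 4 S. mikatae arrays and on both sides of 0 in each other group. The S. mikatae mean fell by 0.24 ± 0.12 (SD, n = 4; adjusted p = 0.00844), a call that ended without array 2 (adjusted p = 0.0541). Its difference from S. cerevisiae, −0.24 (95% interval −0.46 to −0.022), did not pass the threshold (adjusted p = 0.15).

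Succinate dehydrogenase oxidises succinate and feeds ubiquinone, with a flavoprotein (SDH1), an iron-sulfur subunit (SDH2) and 2 membrane anchors (SDH3 and SDH4). SDH2 (YLL041C) was at 0.076, 0.42, 0.18 and 0.39 in S. mikatae, at 0.67, 0.51 and 0.42 in S. paradoxus, at 0.39, 0.56 and 0.72 on mating and at 0.46, 0.39 and 0.45 on S. cerevisiae alpha factor arrays. It was above 0 on all 13 arrays, with the lowest values in S. mikatae. Its means were 0.27 ± 0.17 (n = 4; adjusted p = 0.0083), 0.53 ± 0.13 (n = 3; adjusted p = 0.000183), 0.56 ± 0.17 (n = 3; adjusted p = 0.000201) and 0.44 ± 0.038 (n = 3; adjusted p = 0.00174), and no pair of groups differed past the threshold. SDH1 (YKL148C) rose to 0.16, 0.21, 0.097 and 0.34 in S. mikatae and to 0.29, 0.52 and 0.49 in S. cerevisiae, while S. paradoxus had 0.15, 0.022 and 0.25 (adjusted p = 0.147).

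The anchor gene SDH3 (YKL141W) separated S. paradoxus from S. cerevisiae. It was at −0.073, 0.66, −0.14 and 0.096 on S. mikatae arrays, at −0.25, −0.20 and −0.19 on S. paradoxus arrays and at 0.46, 0.70 and 0.21 on S. cerevisiae alpha factor arrays. The S. paradoxus and S. cerevisiae arrays did not overlap. S. mikatae array 2, at 0.66, lay within the S. cerevisiae range, and the other S. mikatae arrays lay between both groups. S. paradoxus was lower than S. cerevisiae by 0.67 on the log2 scale (difference −0.67, 95% interval −1.08 to −0.25, adjusted p = 0.0352), though leaving out any 1 of 5 of the 6 arrays ended that call (adjusted p up to 0.105). SDH4 was called in no group, with means of −0.14, 0.078 and 0.15 in S. paradoxus, mating and S. cerevisiae alpha factor arrays. Calls of single species also rested on few arrays: that of SDH2 in S. mikatae was lost without array 2 (adjusted p = 0.0506), that of SDH1 there without array 2 or 4 (up to 0.111), and that of SDH3 in S. cerevisiae without array 1 or 2 (up to 0.150).

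In the cytochrome bc1 complex, which carries electrons from ubiquinol to cytochrome c, 2 of 8 genes rose in S. mikatae, 5 of 8 in S. paradoxus, 3 of 6 on mating and 5 of 8 on S. cerevisiae alpha factor arrays. QCR2 in S. paradoxus was the only one of its genes that fell. Over all genes tested, 23.3%, 23.9%, 19.4% and 16.3% rose and 24.7%, 24.6%, 20.2% and 17.3% fell in the same order of groups. The small subunit gene QCR8 (YJL166W) rose in all 4 groups. Its values were 0.45, 0.68, 0.49 and 0.50 in S. mikatae, 0.51, 0.53 and 0.56 in S. paradoxus, 0.21, 0.41 and 0.28 on mating and 0.44, 0.20 and 0.41 on S. cerevisiae alpha factor arrays. All S. mikatae and S. paradoxus arrays stood above all 6 S. cerevisiae arrays, with a mean of 0.53 ± 0.10 in S. mikatae (1.44-fold, adjusted p = 1.01e-05) and of 0.35 ± 0.13 in S. cerevisiae after alpha factor (1.27-fold, adjusted p = 0.00218). The difference of 0.18 (95% interval −0.018 to 0.38) did not pass the threshold (adjusted p = 0.236).

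QCR9 (YGR183C), another small subunit, was at 0.48, 0.50, 0.13 and 0.33 in S. mikatae, at 0.61, 0.59 and 0.76 in S. paradoxus and at 0.26, 0.23 and 0.45 in S. cerevisiae after alpha factor. It was above 0 on all 10 arrays and highest on the 3 S. paradoxus arrays, with 0.65 ± 0.091 there (1.57-fold, adjusted p = 7.96e-05), but its difference of 0.34 from S. cerevisiae was not called (adjusted p = 0.0769). RIP1 (YEL024W), the Rieske iron-sulfur protein that takes electrons from ubiquinol, was at 0.094, 0.43, 0.05 and 0.39 in S. mikatae, at 0.34, 0.50 and 0.53 in S. paradoxus, at 1.52, 0.70 and 0.65 on mating and at 0.63, 1.13 and 0.59 on S. cerevisiae alpha factor arrays. The 6 S. cerevisiae arrays all stood above the 7 arrays of the other species. RIP1 rose by 0.96 ± 0.49 on mating arrays (1.94-fold, adjusted p = 0.000252) and by 0.79 ± 0.30 after alpha factor (1.72-fold, adjusted p = 0.00157), and the S. mikatae minus S. cerevisiae difference of −0.55 (95% interval −0.97 to −0.12) was not called (adjusted p = 0.0932).

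The core protein gene COR1 (YBL045C) was called in S. paradoxus alone. It was at 0.11, 0.038, 0.11 and 0.11 in S. mikatae, at 0.45, 0.27 and 0.46 in S. paradoxus, at −0.015, −0.12 and 0.12 on mating and at −0.011, 0.10 and 0.078 on S. cerevisiae alpha factor arrays. The 3 S. paradoxus arrays lay above all 10 others. S. paradoxus exceeded S. cerevisiae by 0.34 (95% interval 0.14 to 0.54, adjusted p = 0.0262), and S. mikatae was lower than S. paradoxus (difference −0.30, 95% interval −0.49 to −0.11, adjusted p = 0.0361). Both differences lost their call when single arrays were left out (adjusted p up to 0.0935 without S. cerevisiae array 1 or 3 or S. paradoxus array 1 or 3, and up to 0.119 without S. paradoxus array 1 or 3 or any S. mikatae array).

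The other core protein gene, QCR2 (YPR191W), was at 0.036, −0.04 and −0.087 on the 3 S. mikatae arrays that measured it, at −0.27, −0.43 and −0.13 in S. paradoxus and at 0.13, −0.071 and −0.28 in S. cerevisiae after alpha factor. It fell in S. paradoxus by 0.28 ± 0.15 (adjusted p = 0.0247), and without array 1 or 2 that call ended (up to 0.163). QCR7 (YDR529C) was at 0.17, 0.32 and 0.30 on S. cerevisiae alpha factor arrays, where it rose by 0.26 ± 0.080 (adjusted p = 0.0264), and averaged 0.085, 0.086 and 0.15 in S. mikatae, S. paradoxus and on mating arrays. CYT1, the cytochrome c1 gene, rose in S. paradoxus (0.37 ± 0.093), on mating arrays (0.31 ± 0.18) and in S. cerevisiae after alpha factor (0.37 ± 0.069), and averaged 0.11 ± 0.13 in S. mikatae (adjusted p = 0.213). QCR6 was called in no group and ranged from −0.81 to 0.25 among the S. mikatae arrays. Without array 2 or 3 the call of RIP1 in S. paradoxus ended (up to 0.0899), as did that of QCR7 in S. cerevisiae (up to 0.128), that of QCR9 in S. cerevisiae without array 3 (0.119) and that of CYT1 on mating arrays without array 2 (0.0847).

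Cytochrome c, the soluble carrier between both oxidoreductases, is made from CYC1 in aerobic cells and from its paralogue CYC7, which is favoured at low oxygen. CYC1 (YJR048W) was at 0.41, 0.91, 0.38 and 0.67 in S. mikatae, at −0.16, −0.20 and 0.21 on mating and at 0.23, 0.22 and −0.12 on S. cerevisiae alpha factor arrays, and gave no value in S. paradoxus. All 4 S. mikatae arrays stood above the 6 others, with a mean of 0.59 ± 0.25 (1.51-fold, adjusted p = 0.000512), and the difference from S. cerevisiae of 0.48 (95% interval 0.14 to 0.82) missed the threshold (adjusted p = 0.0659). CYC7 was called in no group and had means of −0.33 ± 0.33, 0.037 ± 0.17 and 0.30 ± 0.58 in S. mikatae, S. paradoxus and S. cerevisiae after alpha factor, with 0.97 on S. cerevisiae array 2 against −0.03 and −0.046 on the other 2.

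Cytochrome c oxidase, the terminal enzyme of the chain, held genes that moved in opposite directions in all 3 species. It had 2 rises and 3 falls of 7 in S. mikatae, 2 rises and 1 fall of 8 in S. paradoxus, 1 rise of 6 on mating arrays and 1 rise and 1 fall of 8 in S. cerevisiae after alpha factor. The shares over all genes tested were 23.3%, 23.9%, 19.4% and 16.3% for rises and 24.7%, 24.6%, 20.2% and 17.3% for falls, in the same order. COX12 (YLR038C), a small peripheral subunit, was at −0.81, −1.27, −0.52 and −0.96 in S. mikatae, at −0.33, −0.57 and −0.44 in S. paradoxus and at −0.13, −0.54 and −0.47 in S. cerevisiae after alpha factor. It was below 0 on all 10 arrays. Its means were −0.89 ± 0.31 (adjusted p = 3.84e-05), −0.45 ± 0.12 (adjusted p = 0.0109) and −0.38 ± 0.22 (adjusted p = 0.0354), and the S. mikatae minus S. cerevisiae difference of −0.51 (95% interval −0.87 to −0.15) missed the threshold (adjusted p = 0.0667).

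COX5A and COX5B encode alternative forms of subunit V, the first used in aerobic cells and the second at low oxygen. COX5B (YIL111W) was at −1.14, −0.53, 0.28 and −1.35 in S. mikatae, at −0.32, −0.17 and −0.20 in S. paradoxus, at 1.0, 1.10 and 0.67 on mating and at 0.62, 0.33 and 0.59 on S. cerevisiae alpha factor arrays. It was below 0 on 3 of 4 S. mikatae and all 3 S. paradoxus arrays and above 0 on all 6 S. cerevisiae arrays. The S. mikatae mean fell by 0.68 ± 0.73 (adjusted p = 0.00795) and the mating mean rose by 0.92 ± 0.23 (1.90-fold, adjusted p = 0.00428), while the S. cerevisiae alpha factor mean of 0.52 ± 0.16 had an adjusted p of 0.0792. S. mikatae was lower than S. cerevisiae (difference −1.20, 95% interval −1.81 to −0.59, adjusted p = 0.0143), which was the largest difference from S. cerevisiae called in the set. That call ended without S. cerevisiae array 1 or 3 (adjusted p up to 0.0542), and the S. mikatae response lost its call without array 1 or 4 (up to 0.0639).

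COX5A (YNL052W) was at −0.0053, 0.46, 0.12 and 0.41 in S. mikatae, at 0.64, 0.81 and 0.99 in S. paradoxus and at 0.19, 0.25 and 0.37 in S. cerevisiae after alpha factor, and was not read on the mating arrays. Each S. paradoxus array exceeded all 7 others. S. paradoxus rose by 0.81 ± 0.18 (1.75-fold, adjusted p = 5.56e-05), the highest mean of any gene of the set in that species. It exceeded S. cerevisiae by 0.54 (95% interval 0.23 to 0.85, adjusted p = 0.0244), and S. mikatae was lower than S. paradoxus (difference −0.56, 95% interval −0.85 to −0.28, adjusted p = 0.0151). The first call ended without S. cerevisiae array 1 or 2 or S. paradoxus array 2 or 3 (up to 0.0763), the second without S. paradoxus array 3 (0.0580), and that of the S. mikatae response (0.25 ± 0.23, adjusted p = 0.0334) without array 2 or 4 (up to 0.161). In S. paradoxus the isoform genes thus stood at opposite signs on all 3 arrays, and in S. cerevisiae both were above 0 on all 3 alpha factor arrays. Probes of such paralogous pairs (COX5A and COX5B, CYC1 and CYC7, and genes with isoenzymes such as CIT1, ACO1 and MDH1) can share signal, which was not tested.

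COX8 (YLR395C), a small membrane subunit, was at −0.40, −0.64, −0.34 and −0.27 in S. mikatae, at −0.29, −0.22 and 0.17 in S. paradoxus, at −0.10, −0.027 and −0.16 on mating and at 0.12, 0.017 and −0.059 on S. cerevisiae alpha factor arrays. Its S. mikatae arrays were all below the S. cerevisiae arrays. It fell in S. mikatae by 0.41 ± 0.16 (adjusted p = 0.000688), with a difference from S. cerevisiae of −0.44 (95% interval −0.70 to −0.18, adjusted p = 0.0298) that was not called without S. mikatae array 1 or 2 or any S. cerevisiae array (up to 0.119). COX13 (YGL191W), another peripheral subunit, was at 0.20, 0.37, 0.42 and 0.18 in S. mikatae, where it rose by 0.29 ± 0.12 (adjusted p = 0.00741), and averaged 0.15, 0.12 and −0.079 in S. paradoxus, on mating and on S. cerevisiae alpha factor arrays. COX9 (YDL067C) was at 0.13, 0.43 and 0.18 on S. cerevisiae alpha factor arrays, a rise of 0.25 ± 0.16 (adjusted p = 0.048) that ended without any 1 of them (up to 0.290). COX4 rose in S. paradoxus on the 2 arrays that measured it (0.33 and 0.50; adjusted p = 0.011), and COX6 and COX7 were called in no group, with means between −0.088 and 0.21. The fall of COX12 lost its call in S. paradoxus without array 2 (0.0710) and in S. cerevisiae without array 2 or 3 (up to 0.178).

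Genes of the ATP synthase rose in 5 of 11 cases in S. mikatae, 5 of 11 in S. paradoxus, 3 of 7 on mating and 4 of 11 on S. cerevisiae alpha factor arrays, and fell in 1, 3, 1 and 0 cases. Among all genes tested, 23.3%, 23.9%, 19.4% and 16.3% rose and 24.7%, 24.6%, 20.2% and 17.3% fell, in the same order. ATP1 (YBL099W), the alpha subunit of the catalytic F1 head, was at 0.50, 0.45, 0.18 and 0.71 in S. mikatae, at 0.47, 0.50 and 0.61 in S. paradoxus, at 0.10, −0.053 and 0.33 on mating and at −0.027, 0.33 and 0.14 on S. cerevisiae alpha factor arrays. All S. paradoxus arrays and 3 of 4 S. mikatae arrays exceeded the 6 S. cerevisiae arrays. It rose by 0.46 ± 0.22 in S. mikatae (1.37-fold, adjusted p = 0.00064) and by 0.53 ± 0.072 in S. paradoxus (1.44-fold, adjusted p = 0.000709). Its S. paradoxus minus S. cerevisiae difference of 0.38 (95% interval 0.076 to 0.68) was not called (adjusted p = 0.0838). The beta subunit gene ATP2, whose product forms the head together with Atp1, was called in no species, with means of 0.052, 0.11 and 0.17 in S. mikatae, S. paradoxus and S. cerevisiae after alpha factor.

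Of the genes of the central stalk inside F1, ATP3 and ATP16 rose in S. mikatae and S. paradoxus, and ATP15 fell in S. paradoxus. ATP3 (YBR039W), the gamma subunit, was at 0.38, 0.62, 0.27 and 0.58 in S. mikatae, at 0.11, 0.34 and 0.30 in S. paradoxus, at −0.067, −0.34 and −0.25 on mating and at 0.04, −0.077 and −0.0085 on S. cerevisiae alpha factor arrays. Neither the S. mikatae nor the S. paradoxus arrays overlapped with those of S. cerevisiae under either treatment. It rose by 0.46 ± 0.16 in S. mikatae (adjusted p = 0.000115) and by 0.25 ± 0.12 in S. paradoxus (adjusted p = 0.0207), and fell by 0.22 ± 0.14 on mating arrays (adjusted p = 0.0456). S. mikatae exceeded S. cerevisiae by 0.48 (95% interval 0.25 to 0.71, adjusted p = 0.0106), which held when any single array was left out (adjusted p up to 0.0408).

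ATP15 (YPL271W), the epsilon subunit, was at 0.082, 0.38, 0.10 and −0.13 in S. mikatae, at −0.36, −0.20 and −0.29 in S. paradoxus and at 0.58, 0.20 and 0.29 in S. cerevisiae after alpha factor. S. paradoxus was below 0 on each array and S. cerevisiae above 0 on each. S. paradoxus was lower than S. cerevisiae (difference −0.64, 95% interval −0.94 to −0.33, adjusted p = 0.00992), a difference that stayed called without any single array (up to 0.0402). The responses themselves, −0.28 ± 0.079 in S. paradoxus (adjusted p = 0.0334) and 0.36 ± 0.20 in S. cerevisiae (adjusted p = 0.0163), lost their calls without any 1 S. paradoxus array (up to 0.148) and without S. cerevisiae array 1 or 3 (up to 0.126). ATP16, the delta subunit, rose in S. mikatae (0.37 ± 0.19), S. paradoxus (0.24 ± 0.018) and on mating arrays (0.26 ± 0.17), with 0.21 ± 0.10 in S. cerevisiae after alpha factor (adjusted p = 0.0694).

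In the peripheral stalk, which holds the head still, ATP4 (YPL078C, subunit b) was at 0.23, 0.23, 0.038 and 0.30 in S. mikatae, at 0.37, 0.46 and 0.43 in S. paradoxus and at 0.18, 0.24 and 0.27 in S. cerevisiae after alpha factor. It was above 0 on all 10 arrays, and the S. paradoxus arrays exceeded the other 7. ATP5 (the oligomycin-sensitivity subunit) rose by 0.41 ± 0.073, 0.50 ± 0.12 and 0.24 ± 0.19 in the same groups. ATP7 (YKL016C, subunit d) was at 0.35, 0.46 and 0.22 on mating arrays, where it rose by 0.34 ± 0.12 (adjusted p = 0.0191), and averaged 0.12, 0.078 and 0.17 in S. mikatae, S. paradoxus and S. cerevisiae after alpha factor. ATP14 (subunit h) fell in S. paradoxus by 0.35 ± 0.19 (adjusted p = 0.00254) and averaged −0.12, 0.10 and −0.21 in S. mikatae, on mating and on S. cerevisiae alpha factor arrays.

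ATP20 (YPR020W), the membrane subunit g that takes part in joining ATP synthase dimers, was at −0.31, −0.60, −0.21 and −0.74 in S. mikatae, at −0.61, −0.48 and −0.35 in S. paradoxus, at 0.23, 0.23 and −0.098 on mating and at −0.14, −0.25 and −0.22 on S. cerevisiae alpha factor arrays. It was below 0 on all 10 alpha factor arrays and above 0 on 2 of 3 mating arrays. It fell by 0.46 ± 0.25 in S. mikatae (adjusted p = 0.000593) and by 0.48 ± 0.13 in S. paradoxus (adjusted p = 0.00143). ATP17, subunit f, rose on mating (0.23 ± 0.15) and on S. cerevisiae alpha factor arrays (0.29 ± 0.011). Several of these calls rested on single arrays. They ended for ATP4 in S. mikatae without array 1 or 4 (up to 0.0648), for ATP3 in S. paradoxus without array 2 or 3 (up to 0.120), for ATP16 there without any 1 array (up to 0.102), and on mating arrays for ATP3 without array 2 or 3 (up to 0.259) and for ATP7, ATP16 and ATP17 without array 1 or 2 (up to 0.122, 0.216 and 0.186). The fall of ATP3 on mating arrays also lost its call without any 1 of 5 of the 10 arrays of other groups. It was not called either in a fit on the mating arrays alone or with replicate numbers as a block. In S. cerevisiae after alpha factor calls ended for ATP4 without any 1 array (up to 0.122), for ATP5 without array 1 or 2 (up to 0.278) and for ATP17 without array 3 (0.0529).

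The TCA cycle had rises of 6 of 10 genes in S. mikatae, 5 of 10 in S. paradoxus, 3 of 6 on mating and 8 of 11 on S. cerevisiae alpha factor arrays, with falls of 2, 3, 0 and 0. Of all genes tested, 23.3%, 23.9%, 19.4% and 16.3% rose and 24.7%, 24.6%, 20.2% and 17.3% fell, in the same order. At the entry of the cycle, CIT1, citrate synthase, averaged 0.48 ± 0.43 in S. mikatae, 0.58 ± 0.14 in S. paradoxus and 0.57 ± 0.045 in S. cerevisiae after alpha factor, and was called in each (adjusted p = 0.00757, 0.00602 and 0.0109). ACO1 (YLR304C), aconitase, was read in S. cerevisiae alone, at 0.87, 0.51 and 0.55 on mating arrays and at 0.64, 0.68 and 0.61 after alpha factor. Both groups averaged 0.64 (1.56-fold), and their difference was −0.0024 (95% interval −0.28 to 0.28, adjusted p = 0.991). At the end of the cycle MDH1, malate dehydrogenase, rose by 0.45 ± 0.077, 0.41 ± 0.072, 0.30 ± 0.085 and 0.28 ± 0.068 in S. mikatae, S. paradoxus, mating and S. cerevisiae alpha factor arrays.

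The 2 subunits of the NAD-dependent isocitrate dehydrogenase were called in opposite directions in S. mikatae, where IDH1 fell and IDH2 rose, and both rose in S. cerevisiae after alpha factor. IDH1 (YNL037C) was at −0.23, −0.47, −0.17 and −0.24 in S. mikatae, at −0.38, −0.19 and −0.34 in S. paradoxus, at 0.23 and 0.20 on the 2 mating arrays that measured it and at 0.25, 0.22 and 0.18 on S. cerevisiae alpha factor arrays. It was below 0 on all 7 arrays of the other species and above 0 on all 5 of S. cerevisiae. The differences from S. cerevisiae were −0.49 in S. mikatae (95% interval −0.70 to −0.29, adjusted p = 0.00455) and −0.52 in S. paradoxus (95% interval −0.74 to −0.30, adjusted p = 0.00429). Both use the same S. cerevisiae arrays, and both stayed called without any single array (up to 0.0219 and 0.0200). IDH2 (YOR136W) was at 0.34, 0.82, 0.84 and 0.66 in S. mikatae, at 0.28, 0.15 and −0.00058 in S. paradoxus and at 0.69, 0.54 and 0.56 in S. cerevisiae after alpha factor. S. paradoxus lay below the arrays of the other species. It was lower than S. cerevisiae (difference −0.45, 95% interval −0.75 to −0.15, adjusted p = 0.0441), and S. mikatae exceeded S. paradoxus by 0.52 (95% interval 0.24 to 0.80, adjusted p = 0.0194). Both of these calls ended when arrays were left out (adjusted p up to 0.131 without any 1 array of either group, and up to 0.0685 without S. paradoxus array 2 or 3 or S. mikatae array 3).

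The 2-oxoglutarate dehydrogenase complex turns 2-oxoglutarate into succinyl-CoA through KGD1 (its first enzyme), KGD2 (its succinyltransferase) and LPD1 (dihydrolipoamide dehydrogenase). KGD1 (YIL125W) was at 0.15, 0.36, 0.32 and 0.032 in S. mikatae, at −0.062, 0.20 and 0.029 in S. paradoxus, at −0.054, −0.089 and −0.0084 on mating and at 0.59, 0.40 and 0.39 on S. cerevisiae alpha factor arrays. The 3 S. cerevisiae alpha factor arrays were the highest of all 13. S. paradoxus was lower than S. cerevisiae (difference −0.40, 95% interval −0.64 to −0.17, adjusted p = 0.0249), a call lost without S. cerevisiae array 1 or 3 or S. paradoxus array 1 or 3 (up to 0.0990). KGD2 (YDR148C) was at −0.045, −0.42, −0.037 and −0.22 in S. mikatae, at −0.47, −0.40 and −0.66 in S. paradoxus and at 0.41, −0.23 and 0.075 in S. cerevisiae after alpha factor. It fell in S. paradoxus by 0.51 ± 0.13 (adjusted p = 0.00314), and S. paradoxus was lower than S. cerevisiae (difference −0.60, 95% interval −0.95 to −0.25, adjusted p = 0.0272), again not without array 1 or 3 of either (up to 0.0961). LPD1 rose by 0.28 ± 0.14 in S. mikatae (adjusted p = 0.00174) and by 0.20 ± 0.053 in S. paradoxus (adjusted p = 0.0281), and averaged −0.12 on mating and 0.17 on S. cerevisiae alpha factor arrays.

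Succinyl-CoA ligase, which makes the only nucleotide triphosphate formed within the cycle, had the gene with the lowest F test p of the set. LSC2 (YGR244C), its beta subunit, was at −0.80, −0.50, −0.51 and −0.50 in S. mikatae, at 0.59, 0.75 and 0.35 in S. paradoxus, at 0.21, 0.30 and 0.27 on mating and at 0.24, 0.20 and 0.41 on S. cerevisiae alpha factor arrays. All 4 S. mikatae arrays were below 0 and all 9 others above it. LSC2 fell by 0.58 ± 0.15 in S. mikatae (1.49-fold lower, adjusted p = 2.49e-05) and rose by 0.56 ± 0.20 in S. paradoxus (1.48-fold, adjusted p = 0.000121), by 0.26 ± 0.046 on mating arrays (adjusted p = 0.0256) and by 0.29 ± 0.11 in S. cerevisiae after alpha factor (adjusted p = 0.0191). S. mikatae was lower than S. paradoxus (difference −1.14, 95% interval −1.38 to −0.90, adjusted p = 2.06e-05) and lower than S. cerevisiae (difference −0.86, 95% interval −1.10 to −0.62, adjusted p = 0.000246). Both differences stayed called under every alternative tried except that a minimum log2 change of 1 removed the difference from S. cerevisiae.

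The alpha subunit gene LSC1 (YOR142W) did not follow LSC2 in S. mikatae. It was at 0.26, 0.35, 0.14 and 0.26 there, at 0.63, 0.69 and 0.44 in S. paradoxus and at 0.55, 0.55 and 0.44 in S. cerevisiae after alpha factor, above 0 on all 10 arrays. It rose by 0.25 ± 0.083 (adjusted p = 0.00508), 0.59 ± 0.13 (adjusted p = 4.79e-05) and 0.51 ± 0.063 (adjusted p = 0.000287). S. mikatae was lower than S. paradoxus (difference −0.33, 95% interval −0.54 to −0.13, adjusted p = 0.036), a call lost without S. mikatae array 1, 3 or 4 or S. paradoxus array 1 or 2 (up to 0.125). FUM1, fumarase, fell in S. paradoxus by 0.28 ± 0.12 (adjusted p = 0.0187) and averaged −0.064 in S. mikatae and −0.013 in S. cerevisiae after alpha factor. Calls that ended without single arrays were those of KGD1 in S. mikatae (array 2 or 3, up to 0.0964), LPD1 in S. paradoxus (any array, up to 0.136), FUM1 in S. paradoxus (array 2 or 3, up to 0.103), LSC2 on mating arrays (any array, up to 0.112), and IDH1 (any array, up to 0.128) and LSC2 (array 1 or 3, up to 0.153) in S. cerevisiae.

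The complexes were set side by side by the median of their gene means, as a description with no test, since genes of a complex are not replicates. The cytochrome bc1 complex had 0.10 in S. mikatae, 0.38 in S. paradoxus, 0.22 on mating and 0.29 on S. cerevisiae alpha factor arrays. Cytochrome c oxidase had −0.045, −0.015, 0.16 and 0.20, the ATP synthase 0.17, 0.19, 0.13 and 0.17, and the TCA cycle 0.23, 0.17, 0.24 and 0.29. Over the genes measured on all 13 arrays the bc1 complex (6 genes) had 0.10, 0.38, 0.22 and 0.31, cytochrome c oxidase (4 genes) −0.23, −0.10, 0.14 and 0.12, the ATP synthase (7 genes) 0.17, 0.19, 0.13 and 0.15, and the TCA cycle (4 genes) 0.25, 0.31, 0.10 and 0.28. Cytochrome c oxidase was thus the lowest of these 4 in S. mikatae and S. paradoxus by either count, and the ATP synthase moved least between groups. Within a complex the gene means spanned a wide range, for cytochrome c oxidase from −0.89 to 0.29 in S. mikatae and from −0.45 to 0.81 in S. paradoxus. The plot of gene means by complex gives this spread.

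**Figure D2:**
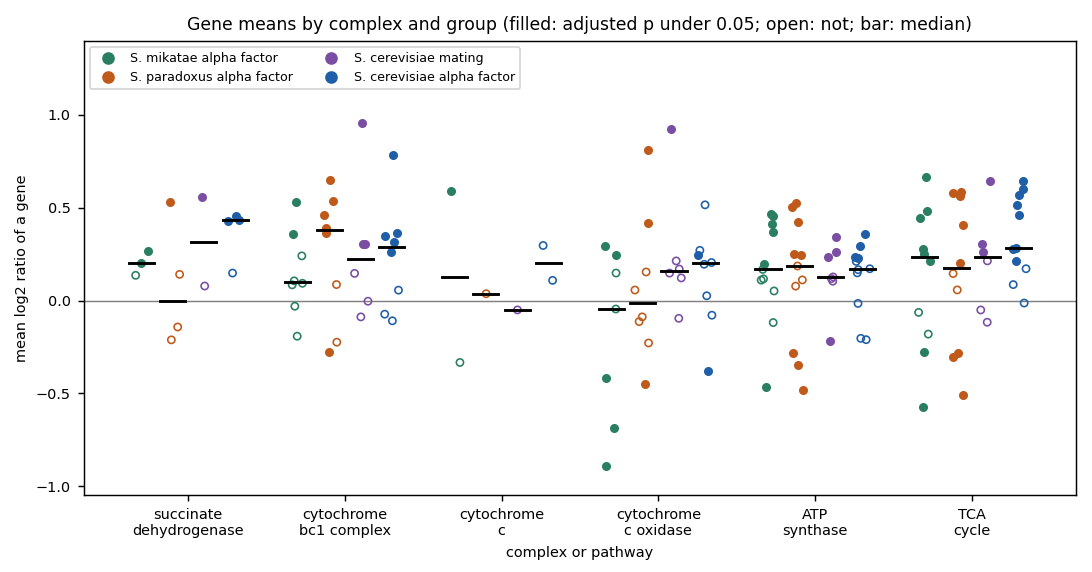
Mean log2 ratio of each gene (points; filled where the adjusted p was under 0.05, open otherwise) by complex (x axis) and group (colour), with a bar at the median of the gene means. Medians of the cytochrome bc1 complex are above 0 in all 4 groups, at 0.10 to 0.38, and those of cytochrome c oxidase lie near 0 in S. mikatae and S. paradoxus, at −0.045 and −0.015.

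Differences between species in the whole set were about as frequent as among all genes. The moderated F test over the 3 alpha factor responses called 12 of 41 genes of the set, or 29.3%, against 23.8% of all 4084 genes tested. Of the 12, 6 belonged to the TCA cycle (IDH1, IDH2, KGD1, KGD2, LSC1 and LSC2, of 10 tested), 3 to cytochrome c oxidase (COX5A, COX5B and COX8, of 7), 2 to the ATP synthase (ATP3 and ATP15, of 11) and 1 to the bc1 complex (COR1, of 8). The plot of these 12 genes shows their arrays. In the S. mikatae minus S. cerevisiae comparison 5 of 42 genes were called, 1 higher and 4 lower, against 11.9% of all genes (6.38% higher and 5.49% lower). In S. paradoxus minus S. cerevisiae 8 of 42 were called, 2 higher and 6 lower, against 16.3% (9.07% and 7.25%). In S. mikatae minus S. paradoxus 5 of 41 were called, 1 higher and 4 lower, against 13.7% (6.04% and 7.68%). The first 2 of these comparisons share the S. cerevisiae arrays, so they are not separate evidence. Arrays did not overlap for 15 of 42 genes, or 35.7%, in the first comparison (27.1% of all genes), for 21 of 42, or 50%, in the second (39.1%) and for 12 of 41, or 29.3%, in the third (26.9%).

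**Figure D3:**
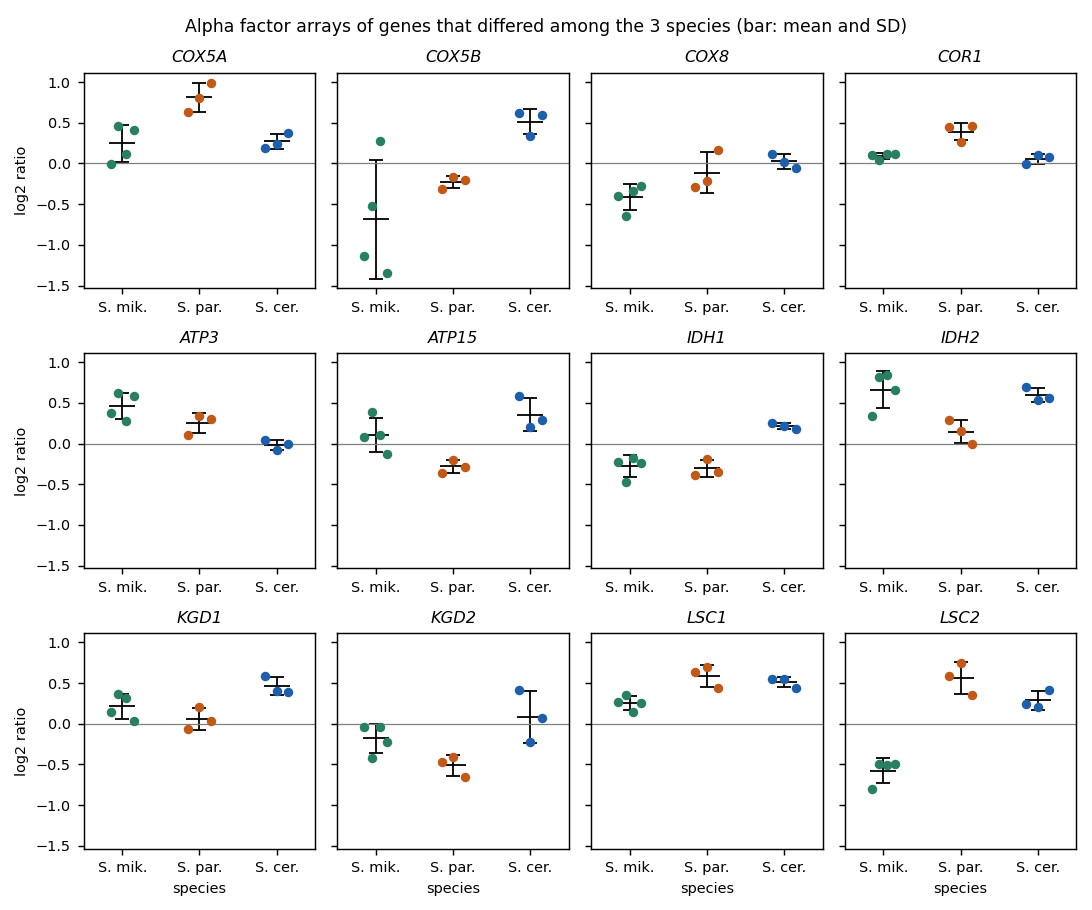
Log2 ratios on each alpha factor array (points) of the 12 genes that differed among the species by the F test, with the mean and SD of each group (bars), for S. mikatae (4 arrays), S. paradoxus (3) and S. cerevisiae (3). LSC2 is below 0 on the 4 S. mikatae arrays alone, IDH1 is above 0 on the 3 S. cerevisiae arrays alone, and COX5A is highest on the 3 S. paradoxus arrays.

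The differences that held without any single array of the groups compared and under the other settings at the same threshold were few: LSC2 and IDH1 in S. mikatae minus S. cerevisiae, ATP15 and IDH1 in S. paradoxus minus S. cerevisiae, and LSC2 in S. mikatae minus S. paradoxus. By the F test these were IDH1 (adjusted p = 0.00341) and LSC2 (adjusted p = 2.84e-05). Without S. cerevisiae array 1 the S. paradoxus minus S. cerevisiae count was 2, and it was 3 to 5 without any other 1 array of these groups. The S. mikatae minus S. cerevisiae count was 3 without S. cerevisiae array 1 or 3, and the S. mikatae minus S. paradoxus count was 2 without S. paradoxus array 3 and 3 without S. paradoxus array 1 or 2, S. mikatae array 1 or S. cerevisiae array 3. The F test called 6, 5 and 7 genes without S. cerevisiae array 1, S. cerevisiae array 3 and S. paradoxus array 3. The plot of differences shows how wide the intervals are. The probes are S. cerevisiae sequences, and how mismatch with RNA of the other species bears on these differences was not tested.

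**Figure D4:**
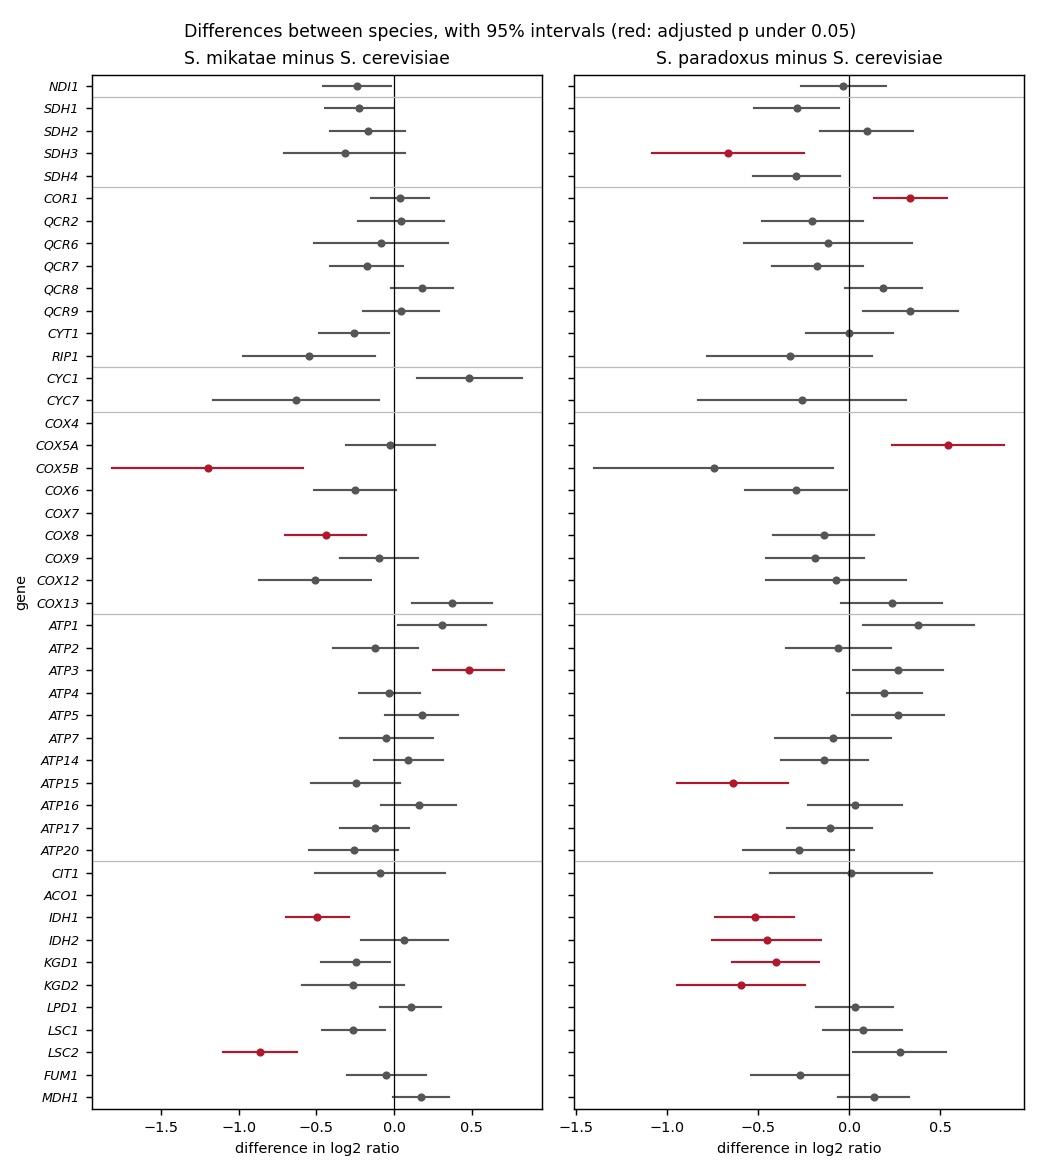
Difference in log2 ratio from S. cerevisiae after alpha factor (points) with its 95% interval (lines) for each gene, in S. mikatae (left) and S. paradoxus (right), in red where the adjusted p was under 0.05. There are 5 red genes on the left, of which COX5B lies farthest from 0 at −1.20, and 8 on the right, where COX5A and COR1 are the 2 above 0.

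In S. cerevisiae the 90 min mating arrays and the 60 min alpha factor arrays overlapped for 23 of the 28 genes tested in both. Their time, medium, mix of mating types and kind of reference sample differ too and cannot be told apart from the kind of treatment. One gene, KGD1, was called, or 3.57%, against 16% of all 3648 genes (8.63% higher and 7.37% lower). Of the 28 genes of the set, limma called 0 higher on mating arrays, and 4 had an unadjusted p under 0.05. The difference of KGD1, mating minus alpha factor, was −0.51 (95% interval −0.75 to −0.28, adjusted p = 0.0079), with all 3 mating arrays below 0 and all 3 alpha factor arrays at 0.39 or more, and it stayed called without any single array (up to 0.0347). Arrays of both groups did not overlap for 5 of 28 genes, or 17.9%, against 40.3% of all genes. These were COX5B, ATP14, ATP20, KGD1 and LPD1. LPD1, which works in the same enzyme complex as KGD1, had −0.12, −0.19 and −0.046 on mating arrays against 0.092, 0.24 and 0.18 on alpha factor arrays (difference −0.29, 95% interval −0.50 to −0.077, adjusted p = 0.0605). ATP14 was higher on mating arrays by 0.32 (95% interval 0.076 to 0.55, adjusted p = 0.0697) and ATP20 by 0.32 (95% interval 0.018 to 0.63, adjusted p = 0.135). The overlap of the other genes can be read in the plot of both groups. The mating response itself rested on its arrays: its 12 calls became 6 without mating array 2, and the 22 calls of the S. cerevisiae alpha factor response became 13 without array 3.

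**Figure D5:**
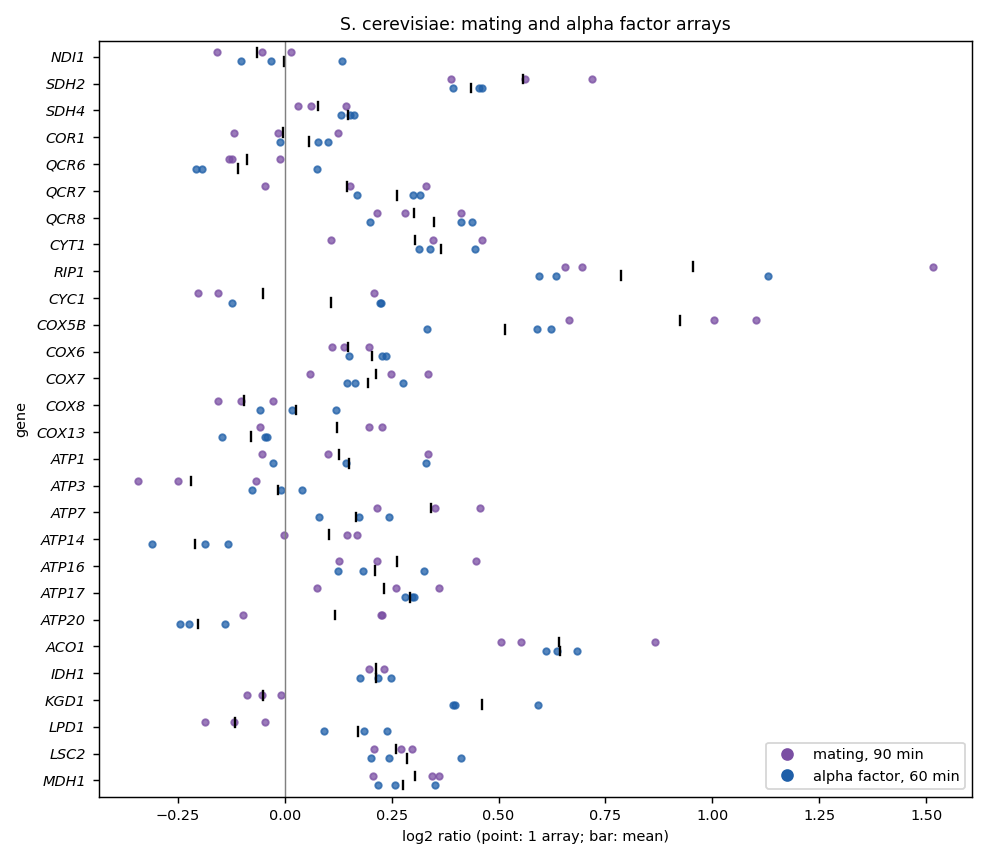
Log2 ratios of the 28 genes tested in both S. cerevisiae treatments (rows), with mating at 90 min (purple, 3 arrays) above alpha factor at 60 min (blue, 3 arrays) in each row and a bar at each mean. KGD1 is at −0.089 to −0.0084 on mating arrays and at 0.39 to 0.59 on alpha factor arrays, and most other rows overlap.

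Other genes of the pathway were counted over 7 lists of 105 genes, 98 of them in the table, covering electron entry and the Hap regulators, assembly factors, small and regulatory subunits, coenzyme Q, heme, pyruvate entry with isoenzymes, and mitochondrial carriers. In all 35 of 83 rose and 14 fell in S. mikatae, 34 of 90 rose and 12 fell in S. paradoxus, 18 of 61 rose and 8 fell on mating arrays, and 26 of 94 rose and 13 fell in S. cerevisiae after alpha factor. Among all genes 23.3% rose and 24.7% fell in S. mikatae, 23.9% and 24.6% in S. paradoxus, 19.4% and 20.2% on mating arrays, and 16.3% and 17.3% in S. cerevisiae after alpha factor, so the share that rose was above the background in each group and the share that fell below it. Assembly factors of the complexes had 11 rises and 3 falls of 27, 12 and 2 of 30, 5 and 2 of 16, and 13 and 3 of 31 in the same order, with the share that rose above the same background in each group. Among them SHY1, an assembly factor of cytochrome c oxidase, rose by 0.98 ± 0.11 in S. mikatae (adjusted p = 7.47e-08), and SCO1, which delivers copper to that complex, by 0.70 ± 0.089 in S. paradoxus (adjusted p = 1.53e-06). COX16 rose by 0.74 ± 0.35 in S. mikatae, 0.60 ± 0.29 in S. paradoxus and 0.57 ± 0.35 in S. cerevisiae after alpha factor. The small and regulatory subunits had 2, 1, 1 and 1 rises and 0 falls of 3 tested in each group, in the same order. QCR10, a small bc1 subunit outside the set, rose by 0.39 ± 0.17 in S. mikatae, 0.497 ± 0.24 on mating and 0.67 ± 0.18 on S. cerevisiae alpha factor arrays. It was not called in S. paradoxus.

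Electron entry and Hap regulators had 4 rises and 3 falls of 12 in S. mikatae, 3 and 1 of 13 in S. paradoxus, 1 and 1 of 12 on mating and 3 and 3 of 14 on S. cerevisiae alpha factor arrays. Against 23.3%, 23.9%, 19.4% and 16.3% of all genes that rose, this share was above the background in S. mikatae and S. cerevisiae after alpha factor, near it in S. paradoxus and below it on mating arrays. NDE1, the external NADH dehydrogenase, fell by 0.94 ± 0.32 in S. mikatae (adjusted p = 1.87e-05) and by 0.36 ± 0.13 in S. cerevisiae after alpha factor, and CYC3, the heme lyase of cytochrome c, fell by 0.76 ± 0.36 in S. mikatae, where CYC1 rose. From the same list GUT2 rose by 0.56 ± 0.098 in S. cerevisiae after alpha factor (adjusted p = 9.98e-05). DLD1 rose by 0.67 ± 0.051 in S. paradoxus (adjusted p = 2.67e-05). Subunits of the Hap2/3/4/5 activator were called in both directions. In S. mikatae HAP5 rose by 0.69 ± 0.21 and HAP3 by 0.34 ± 0.065, and HAP2 fell by 0.39 ± 0.11 (adjusted p = 0.00302). On mating arrays HAP4 rose by 0.37 ± 0.25 and HAP2 fell by 0.32 ± 0.16 (adjusted p = 0.0247). In S. cerevisiae after alpha factor HAP3 rose by 0.40 ± 0.30 and HAP2 fell by 0.36 ± 0.28 (adjusted p = 0.0191), and HAP1, the heme-responsive regulator, fell by 0.52 ± 0.21 in S. paradoxus. Heme synthesis had 2 rises and 1 fall of 7 in S. mikatae and 3 and 1 of 8 in S. paradoxus. It had 2 and 1 of 5 on mating and 1 and 2 of 8 on S. cerevisiae alpha factor arrays. Its rises were above the background except in S. cerevisiae after alpha factor, where they were below 16.3%. Of its genes HEM1, the first enzyme, rose and HEM15, the last, fell in all 4 groups. HEM1 had 0.21 ± 0.063, 0.45 ± 0.15, 0.30 ± 0.079 and 0.32 ± 0.057, and HEM15 had −0.29 ± 0.059, −0.51 ± 0.067, −0.22 ± 0.22 and −0.25 ± 0.045 in S. mikatae, S. paradoxus, mating and S. cerevisiae alpha factor arrays. HEM13, an oxygen-requiring step between them, rose by 0.39 ± 0.11 on mating arrays and fell by 0.97 ± 0.15 in S. cerevisiae after alpha factor.

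For coenzyme Q, COQ2 rose by 0.76 ± 0.24 in S. mikatae and by 1.29 ± 0.54 in S. paradoxus, in a list with 4 rises and 2 falls of 9, 4 and 1 of 10, 3 and 1 of 7, and 1 and 0 of 10 over the 4 groups. Its rises were above the background of 23.3%, 23.9% and 19.4% in the first 3 and below that of 16.3% in S. cerevisiae after alpha factor. Pyruvate entry and isoenzymes had 7 rises and 1 fall of 12 in S. mikatae, 8 and 2 of 13 in S. paradoxus, 3 and 2 of 10 on mating and 4 and 1 of 15 on S. cerevisiae alpha factor arrays, above the same background of rises in each group. The peroxisomal isoenzyme genes MDH3 and CIT2 rose by 0.64 ± 0.14 and 0.43 ± 0.12 in S. mikatae and by 0.75 ± 0.16 and 0.59 ± 0.088 in S. paradoxus. The mitochondrial carriers had 5 rises and 4 falls of 13, 3 and 5 of 13, 3 and 1 of 8, and 3 and 4 of 13. Their rises were near the background in S. paradoxus and above it elsewhere, and their falls were above the background (24.7%, 24.6%, 20.2% and 17.3%) except on mating arrays. ODC1, an oxodicarboxylate carrier, rose by 0.80 ± 0.075 on mating arrays (adjusted p = 9.74e-06), and DIC1, the dicarboxylate carrier, fell by 0.45 ± 0.17 there and by 0.78 ± 0.11 in S. cerevisiae after alpha factor (adjusted p = 4.38e-05).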

How the data were processed

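The deposited table holds 1 log ratio per ORF and array, taken here as a log2 value from the labels and its range; the log base is not given in the sources used here, and neither are the authors' scanner, normalization, centring or rule for missing values. Per the labels' protocols, RNA of each sample and of its reference was labelled with different dyes and hybridised to S. cerevisiae cDNA arrays. The 4 groups and their references came from the labels. Each array was centred on its median and fitted with limma 3.58.1 in R 4.3.3 (statmod 1.5.0) as a mean per group over all 13 arrays (9 residual degrees of freedom), so that groups share 1 estimate of the spread. A mean was tested against 0 and differences between groups by moderated t, any difference among species by the moderated F test, both two-sided where signed. Genes with at least 2 measured arrays per group entered, missing values were skipped, and p-values were adjusted by Benjamini-Hochberg over all genes tested. Errors are SD over arrays. Of the 6132 ORFs, 5665 found a match in RefSeq, and this number includes 43 whose names first needed a dash. The remaining 467 found none and are listed under the deposited name.

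On simulated data of the same size, 100 genes each were changed by 0.5 and by 1 on the log2 scale. The 4 responses recovered 72 to 85 and 98 to 99 of them, and the pairwise differences 48 to 61 and 93 to 97. Fewer genes were changed there than were called in the data, so this recovery need not hold for the data. As alternatives the fit was repeated without centring, with arrays scaled to a common spread or quantile normalized, on genes read by all 13 arrays, on the compared arrays alone, with array weights, with robust eBayes, with a minimum log2 change of 1, without values that ORFs share, with replicate numbers as a block, and without each array in turn. Same-numbered arrays of different groups did not deviate together (r from −0.241 to 0.165 over 18 pairs), so numbers were not used as pairs. All 46 genes may be named. Values on every array are given for the genes with the highest or lowest called mean of their complex, those called in opposite directions and those called in a difference, with others added for their role. Further genes were taken from the 3 with the largest called means per list and group, not all of which are given. HAP2 and HAP3 were also given where they were called outside these 3. The genes and lists were chosen with earlier results of these data known. Sequences were not used here. Plots were drawn with matplotlib 3.10.9 from tables made with pandas 2.3.3 in Python 3.11.15.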

Additional observations from a re-analysis of the deposited data

Results flagged for a closer look

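In the groups of 4 arrays, 2 of 41 genes had 1 array far from the other 3 by Dixon's test: COR1, with 0.038 on S. mikatae array 2, and LSC2, with −0.80 on S. mikatae array 1. Chance flags about 1 in 20 such groups, so 2 of 41 is near what chance gives.

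The response after alpha factor, against cells from before it, differed between species, by the test of the difference itself, for the following genes. In S. paradoxus minus S. cerevisiae the differences were 0.54 for COX5A, 0.34 for COR1, −0.64 for ATP15, −0.67 for SDH3, −0.52 for IDH1, −0.45 for IDH2, −0.40 for KGD1 and −0.60 for KGD2. In S. mikatae minus S. cerevisiae they were −1.20 for COX5B, −0.44 for COX8, 0.48 for ATP3, −0.49 for IDH1 and −0.86 for LSC2. In S. mikatae minus S. paradoxus they were −0.56 for COX5A, −0.30 for COR1, 0.52 for IDH2, −0.33 for LSC1 and −1.14 for LSC2.

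The F test over the 3 species gave adjusted p-values (limma) of 0.016 for COX5A, 0.0211 for COX5B, 0.0359 for COX8, 0.0271 for COR1, 0.0158 for ATP3, 0.0162 for ATP15, 0.00341 for IDH1, 0.0245 for IDH2, 0.0404 for KGD1, 0.0457 for KGD2, 0.0406 for LSC1 and 2.84e-05 for LSC2. The cause of these differences was not tested.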

How the results depend on the processing

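No called gene of the set changed sign under any alternative, and no centring, robust eBayes and shared values set to missing left each count of calls within 1.5 times. Genes measured on all 13 arrays are fewer by construction and gave 15 calls in S. mikatae, 14 in S. paradoxus and 10 in S. cerevisiae after alpha factor, with 2 in S. paradoxus minus S. cerevisiae, 2 in S. mikatae minus S. paradoxus, 3 in mating minus alpha factor and 6 by the F test. A log2 change of at least 1 left 0 calls in each of the 4 responses, 0 in S. paradoxus minus S. cerevisiae, 1 in S. mikatae minus S. cerevisiae, 1 in S. mikatae minus S. paradoxus and 0 in mating minus alpha factor. Array weights gave 13, 11, 3 and 20 calls in S. paradoxus minus S. cerevisiae, S. mikatae minus S. cerevisiae, mating minus alpha factor and the F test. Quantile normalization gave 8 in S. mikatae minus S. cerevisiae, and both it and a common spread of the arrays gave 3 in S. mikatae minus S. paradoxus and 3 in mating minus alpha factor. Only the compared arrays gave 3 in S. mikatae minus S. paradoxus. The replicate block gave 2 in S. mikatae minus S. paradoxus and 7 by the F test. Since the numbers did not pair the arrays, a call lost under it does not by itself show a weaker effect, nor does it show a stable one. Beyond their construction, the cause of these shifts was not tested.

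Leaving out each array in turn gave 20 to 27 calls in S. mikatae, 18 to 26 in S. paradoxus, 6 to 13 on mating and 13 to 25 on S. cerevisiae alpha factor arrays. The same gave 2 to 9 calls in S. paradoxus minus S. cerevisiae, 3 to 6 in S. mikatae minus S. cerevisiae, 2 to 5 in S. mikatae minus S. paradoxus, 1 to 2 in mating minus alpha factor and 5 to 13 by the F test. With 3 or 4 arrays per group, of 100 simulated differences of 0.5 on the log2 scale 48 to 61 were recovered. Differences of that size can thus be missed, but how often in the data is not given by the simulation, which changed fewer genes than were called.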
